A study of Mus musculus with 12 samples.

Results

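Experiment 14 was 1 of the 4 culture experiments of the series, and its 3 arrays (untreated, Th1 and Th17) were set against the 9 arrays of experiments 12, 13 and 16, which made it 3 of the 12 samples. Experiment numbers are the leading numbers of the sample titles. Its arrays were selected on measured values: in earlier results of these arrays its untreated array lay at the end of a principal component and astrocyte markers were higher on all of its arrays. Every difference between experiment 14 and the others is therefore given as a description with no test.

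The cells were primary microglia of C57BL/6 mice, shaken off mixed glial cultures that had been prepared from the meninges-free brains of newborn pups. All groups had the same strain, and the labels name no allele or transgene. For 16 h the cells of each experiment received the supernatant of a restimulated Th1 culture, the supernatant of a Th17 culture, or T cell medium alone (IMDM in the titles), and the last group is called untreated, as in the labels. The study describes 4 independent experiments, and each experiment gave 1 array per treatment. How many pups made up a preparation, and whether preparations were pooled, is not given in the sources used here. The 3 arrays of an experiment were taken to share a preparation, so that experiment 14 counted as 1. Over 4 experiments an exact permutation test could give no p below 0.25.

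Mixed glial cultures of newborn brain grow a layer of astrocytes on which microglia and oligodendrocyte precursors sit, and shaking releases the loosely attached cells. Astrocytes take up glutamate and buffer ions and water, oligodendrocyte precursors give rise to myelinating cells, and microglia are the macrophages of the brain. Cultured cells also adjust to their medium, with transporters that import small organic solutes, enzymes that counter oxidants, cytokines that signal danger and a cell cycle that runs or pauses.

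Levels below are log2 of a probe's normalised signal, on which 3.91 is the floor, and a difference of 1 is a 2-fold change. A difference is the level on an array of experiment 14 minus the mean of the other 3 arrays of the same treatment, averaged over the 3 treatments, with the SD of these 3 within-treatment differences (n = 3 treatments, 1 preparation). A gene stood apart where this mean exceeded 2-fold and the array of experiment 14 lay beyond all 3 others, on the same side, in each treatment. Levels of different probes are not comparable with each other.

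Before scaling, the 75th percentile of the signal was 1200 to 1564 intensity units on the arrays of experiment 14 and 1240 to 2214 on the others, and 54.5% to 62.4% of probes were well above background against 56.8% to 65.0%. Untreated 14 and Th1 14 were hybridised on 1 slide with Th1 13 and Th17 13, and Th17 14 shared a slide with the 3 arrays of experiment 16. Microglial identity was measured first. Of 15 myeloid markers measured, 0 stood apart, and their median difference was 0.08. Csf1r, the receptor that microglia need to survive, was at 18.23, 17.92 and 18.34 on the untreated, Th1 and Th17 arrays of experiment 14 and from 17.72 to 18.11 with a median of 18.05 on the 9 others. Itgam, the surface integrin CD11b, was at 15.01, 14.52 and 14.69, and the others ran from 14.10 to 14.70 with a median of 14.48. The arrays of experiment 14 lay within or next to the range of the others for both markers, and the defining myeloid markers were far above the floor on all 12 arrays.

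Of 20336 genes measured, 256 stood apart as higher in experiment 14, which is 1.26% of the genes tested, and 101 as lower, which is 0.497%. In all, 212 and 88 of them had a gene symbol. By the same rule, experiment 12 had 34 higher and 51 lower genes against its other 3, experiment 13 had 16 and 53, and experiment 16 had 156 and 159. After the mean of each treatment was removed, the first principal component held 30.6% of the remaining variance. Experiment 14 lay at 55.2 untreated, 30.3 after Th1 and 25.6 after Th17 supernatant on it, and experiment 16 at -40.7, -29.4 and -32.8, with experiments 12 and 13 between -15.0 and 13.5. Experiments 14 and 16 thus lay at opposite ends in all 3 treatments, and untreated 14 was the farthest from the centre.

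**Figure D1:**
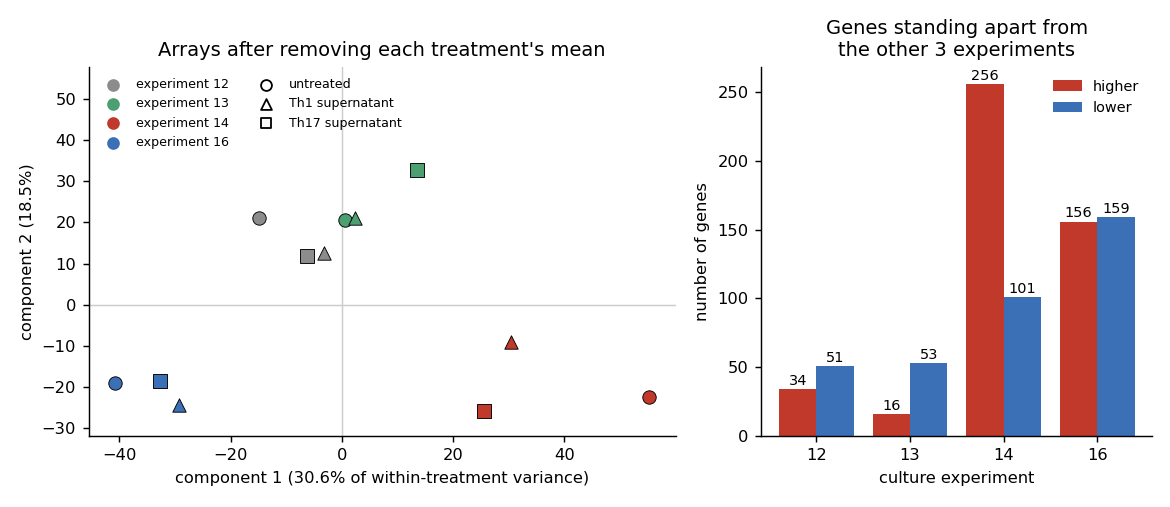
The left panel plots each of the 12 arrays on the first 2 principal components (arbitrary units) after the mean of its treatment was removed, with colour for experiment and shape for treatment; the 3 arrays of experiment 14 lie between 25.6 and 55.2 on component 1, to the right of all others. The right panel gives, for each experiment against its other 3, the number of genes over 2-fold higher (red) or lower (blue) and beyond all others in each treatment, with 256 and 101 for experiment 14.

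The 256 higher genes had a median difference of 1.41, and 39 of them differed by over 4-fold. The 101 lower genes had a median of -1.17, and 1 exceeded 4-fold. Among the higher genes the untreated array gave the largest of the 3 differences for 176, and the median was 1.76 untreated, 1.16 after Th1 and 1.30 after Th17 supernatant. For 114 of the 256, all 3 arrays of experiment 14 exceeded all 9 others regardless of treatment. Among the lower genes the largest difference fell on the Th1 array for 66, and 12 did not overlap at all. These counts without overlap were made among genes that the rule had already placed highest or lowest within each treatment. They were not made over all genes or for the other experiments. The median difference over all genes was -0.04. The higher genes included 27 that passed the signal filter only through experiment 14, being above background on fewer than 3 of the 9 other arrays, and 40 of the lower genes were above background on fewer than 3 arrays of experiment 14. Just inside the threshold lay Lnpep (1.001) and Plk1 (-1.003), just outside it Malat1 (0.99) and Ccdc89 (-0.9999). With normexp background correction, which adds an offset and compresses dim signals, 83 genes were higher and 13 lower. With slide as a term in the model, 257 were higher and 120 lower. Without the Th1 arrays 495 genes were higher, without the Th17 arrays 243 were lower, and with experiment 12 or 13 left out of the comparison 152 or 210 were lower.

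The gene with the largest higher difference was Slc6a12, which imports betaine and GABA. It was at 13.11, 10.67 and 12.96 on the untreated, Th1 and Th17 arrays of experiment 14, whereas the 9 other arrays ran from 3.91 to 5.56 with a median of 4.37. The groups did not overlap, and the difference was 7.66 ± 0.97, taken against 9 arrays of which 5 were above background. With normexp correction the difference was 4.95. Slc6a9, the glycine transporter GlyT1, was at 11.28, 10.02 and 11.08 against values from 7.04 to 8.76 with a median of 7.58, a difference of 3.13 ± 1.04. Slc6a13, a GABA and taurine carrier, reached 7.08, 6.26 and 6.90 and was well above background on all 3 arrays of experiment 14 and on none of the 9 others, so that it was at least 5.74-fold higher. All 3 of these Slc6 carriers were highest on the untreated array of experiment 14 and lowest of its 3 arrays after Th1 supernatant.

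Further genes that handle organic solutes and ions were examined because of these values, that is, after their levels had been seen. Slc5a3, which imports myo-inositol, was at 9.68, 6.60 and 8.71 in experiment 14 and from 4.95 to 6.96 with a median of 6.80 elsewhere (difference 1.97 ± 0.91). Akr1b3, aldose reductase, which makes sorbitol from glucose, was at 17.06, 15.72 and 17.33 against 14.65 to 15.86 with a median of 15.46 (difference 1.40 ± 0.38). A second probe of each gene gave 2.23 and 1.68. Both genes were higher in experiment 14 than on any other array of the same treatment, with an overlap across treatments only where the Th1 array of experiment 14 met untreated or Th17 arrays of the others. Mrps6, a mitochondrial ribosome protein whose RefSeq start lies beside that of Slc5a3, differed by 1.25 ± 0.87. Slc38a2, a carrier of neutral amino acids, differed by 1.23 ± 0.76. Slc6a6, the taurine transporter, differed by 0.08 ± 0.17 and Nfat5, the factor that drives osmolyte transporters, by 0.44 ± 0.37, and neither stood apart.

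Subunits of the sodium pump belonged to the same end of the ranking. Fxyd2, a small regulatory subunit, was at 13.84, 13.02 and 14.33 on the arrays of experiment 14 and from 9.75 to 10.83 with a median of 10.07 on the others, a difference of 3.56 ± 0.45 without overlap, and a second probe gave 3.62. Atp1b1 and Atp1b2, beta subunits, differed by 1.38 ± 0.49 and 1.83 ± 0.21. Slco4a1, an organic anion transporter, was at 16.51, 12.61 and 15.03 in experiment 14 and from 8.45 to 12.94 with a median of 11.55 elsewhere (difference 3.60 ± 1.08); its Th1 level in experiment 14 overlapped the Th17 levels of the others. Slc7a11, which exchanges cystine for glutamate, was at 9.05, 7.76 and 8.77 against 3.91 to 7.26 with a median of 4.88 (difference 3.31 ± 0.56), and all 3 arrays of experiment 14 exceeded all 9 others.

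**Figure D2:**
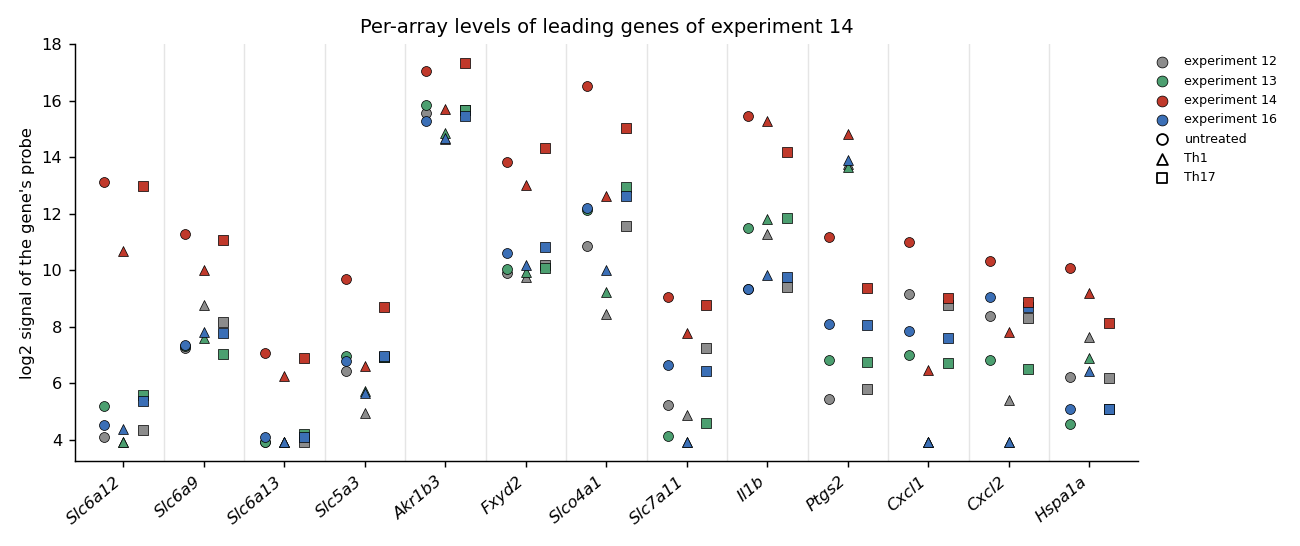
Log2 signal of 13 leading genes on each of the 12 arrays, with colour for experiment and shape for treatment; each symbol is 1 array, and levels can be compared within a gene only. Red symbols (experiment 14) lie above the other experiments of the same treatment for each gene, by the widest margin for Slc6a12 (difference 7.66).

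Inflammatory mediators formed a second group. Il1b, the cytokine interleukin-1 beta, was at 15.44, 15.28 and 14.19 in experiment 14. It was at 9.32, 11.27 and 9.42 in experiment 12, 11.49, 11.79 and 11.83 in experiment 13 and 9.33, 9.83 and 9.75 in experiment 16, each in the order untreated, Th1, Th17. All 3 arrays of experiment 14 lay above all others, by 4.52 ± 0.79 on average (22.9-fold), and experiment 13 came next. Ptgs2, the inducible prostaglandin synthase COX-2, was at 11.16, 14.82 and 9.36 against 5.45 to 13.91 with a median of 8.05, and the difference of 2.65 ± 1.67 came mainly from the untreated array (4.38) rather than the Th1 array (1.06).

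Il1b and Ptgs2 were the only members of the cytokine and mediator list to stand apart, 2 of 16 measured, with a list median of 0.48. Over all genes 1.26% stood apart as higher, and the median was -0.04. Tnf differed by -0.10 ± 0.44 and Il1rn, the interleukin-1 receptor antagonist, by 0.06 ± 0.63. Of 20 chemokines, 3 stood apart as higher. Cxcl1 and Cxcl2, which attract neutrophils, differed by 2.30 ± 0.88 and 2.24 ± 1.17. On the Th1 arrays Cxcl1 was at 3.91, the floor, in experiments 12, 13 and 16 and at 6.47 in experiment 14. Cx3cl1, the ligand of the microglial receptor Cx3cr1, differed by 1.07 ± 0.46. Ccl2, a monocyte attractant, went the other way at -0.91 ± 0.89 and did not stand apart.

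Of 29 type I interferon genes, 1 stood apart as higher, beside 1.26% of all genes. The type I interferon list had a median difference of 0.61, made of 1.05 untreated, 0.32 after Th1 and 0.45 after Th17 supernatant, beside -0.04 over all genes, and these differences between treatments were not tested. The gene apart was Ifit1, an antiviral RNA-binding protein. It was at 10.97, 13.87 and 10.65 in experiment 14, 7.90, 13.57 and 7.04 in experiment 12, 8.56, 13.40 and 10.62 in experiment 13 and 6.21, 12.75 and 6.96 in experiment 16. Cxcl10, an interferon-induced chemokine, was at 14.36 on untreated 14 and between 9.65 and 11.18 on the other untreated arrays, but the Th1 arrays of all experiments lay between 18.07 and 18.23. After Th17 supernatant, experiment 13 was close to or above experiment 14 for most of the list, with Isg15 at 15.41 and 14.32.

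The interferon-gamma list had a median of 0.34 (0.77 untreated, 0.04 after Th1 and 0.27 after Th17 supernatant), and 0 of 22 genes stood apart. MHC class II presentation had a median of -0.31, with -0.95 after Th1 supernatant, and 0 of 9 stood apart. Homeostatic microglia genes had a median of 0.17, and 1 of 23, Sparc, a matrix-binding protein that astrocytes also make, stood apart (difference 1.37 ± 0.71). P2ry12 and Tmem119, which mark resting microglia, differed by -0.41 ± 0.25 and 0.93 ± 0.89. Clec4n, the fungal receptor dectin-2, was 1 of 12 perivascular and meningeal macrophage genes and stood apart at 15.23, 16.16 and 15.88 against 13.24 to 15.23 with a median of 13.96, a difference of 1.58 ± 0.19. Disease-associated microglia, complement and lysosome genes had medians of -0.02, -0.11 and -0.03 with 0 genes apart in each.

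Astrocyte markers were part of what singled the experiment out, and their values are given as such. Of 22 markers listed, 14 passed the signal filter. Of the 14, 8 stood apart as higher and 0 as lower, beside 1.26% and 0.497% of all genes. The median difference over the 14 was 1.65, beside -0.04 over all genes. With no signal filter 8 of the 22 stood apart as higher, and the median over the 22 was 0.41. The mean level of the 14 ran from 7.89 to 8.71 on the arrays of experiment 14 and from 6.41 to 7.33 on the 9 others, so that the groups did not overlap. Among the 14, Slc1a3 passed the filter only through experiment 14, and the mean level was not taken without it. Ndrg2, a cytoplasmic protein of astrocytes, was at 13.29, 9.95 and 12.03 in experiment 14 and from 4.75 to 9.18 with a median of 7.56 elsewhere (difference 4.62 ± 0.62). Gfap, their intermediate filament, was at 7.17, 7.63 and 7.36 against 3.99 to 5.81 with a median of 4.80 (difference 2.50 ± 0.42), and a second probe gave 1.58. For both genes all 3 arrays of experiment 14 exceeded all 9 others.

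Mlc1, a membrane protein of astrocyte endfeet, was at 7.88, 7.08 and 7.08 against 3.91 to 5.47 with a median of 5.02 and was at the floor on all 3 arrays of experiment 16. Slc1a3, the glutamate transporter GLAST, was at 6.92, 6.31 and 5.56 and passed the filter through experiment 14, since only 2 of the 9 other arrays were above background. S100b differed by 1.80 ± 0.46, Atp1b2 by 1.83 ± 0.21, Sparcl1 by 2.13 ± 0.51 and Clu by 1.504 ± 0.13. The list was not uniform: Aqp4, the water channel, differed by 0.15 ± 0.38, Aldoc by 0.05 ± 0.23, and Aldh1l1, a folate enzyme used as a pan-astrocyte marker, by -0.77 ± 0.42. A second probe of Aqp4 gave 0.74 ± 0.36. Several of these markers were dim. With normexp correction 2 of the 14 stood apart, the list median was 0.59 and Gfap differed by 0.83.

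The array measured bulk RNA, in which more cells of a type and more of a transcript per cell cannot be told apart. The contribution of other cell types to the differences described here was not tested. Oligodendrocyte-lineage markers gave 1 of 7 precursor genes and 2 of 8 mature genes apart as higher, beside 1.26% of all genes. The mean level of the mature list was 9.38 to 9.60 in experiment 14 and 8.56 to 9.19 elsewhere, while that of the precursor list overlapped, at 6.38 to 7.73 against 5.78 to 6.94. Olig1, a lineage factor, was at 7.97, 5.90 and 6.89 in experiment 14, 4.11, 3.91 and 4.11 in experiment 12, 5.70, 4.18 and 5.10 in experiment 13 and 5.82, 4.90 and 6.08 in experiment 16. Cldn11, a tight junction protein of myelin, differed by 1.67 ± 0.03, while Cspg4 and Mog differed by -0.33 ± 0.24 and -0.21 ± 0.19.

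**Figure D3:**
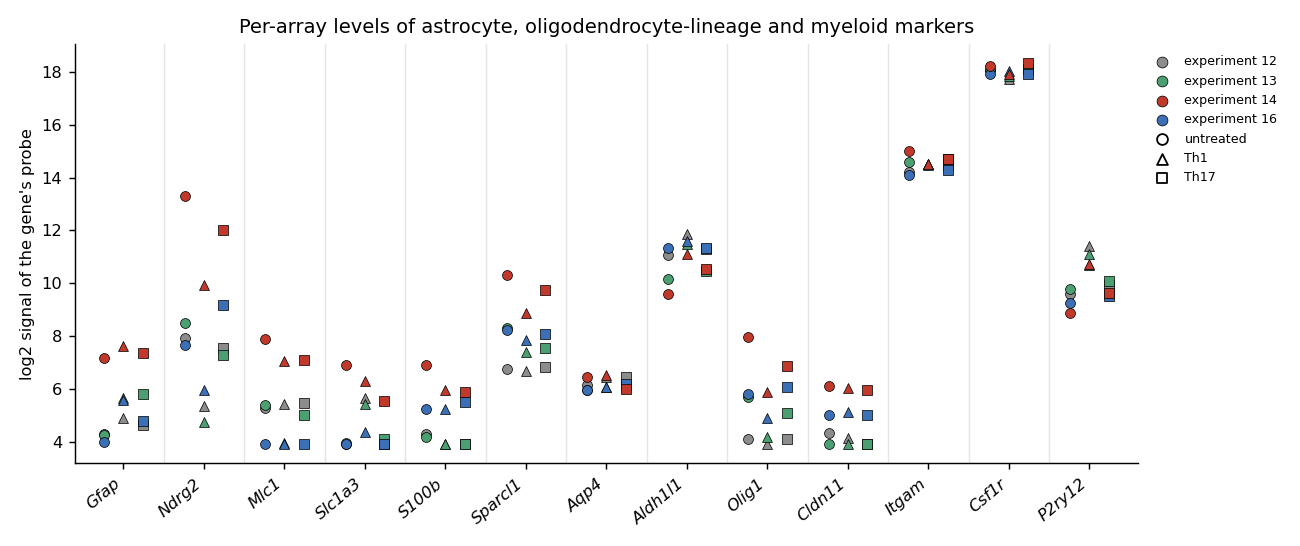
Log2 signal of 8 astrocyte, 2 oligodendrocyte-lineage and 3 myeloid markers on each of the 12 arrays, with colour for experiment and shape for treatment; levels can be compared within a gene only. Experiment 14 (red) lies above the others of the same treatment for Gfap through Sparcl1 and for Olig1 and Cldn11, and close to them for Csf1r (difference 0.18).

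Over the members that passed the signal filter, the neuronal, mural and fibroblast lists had median differences above that of all genes. With no signal filter these medians were 0.26 over 14 neuronal, 0.14 over 11 mural and 0 over 15 fibroblast genes. With scaling alone or the deposited value table, 0 fibroblast genes stood apart. The neuronal list had a mean level of 7.27 to 7.51 in experiment 14 and 6.49 to 7.03 elsewhere, without overlap, and a median difference of 0.57 over 8 genes. In it 2 genes stood apart, Nefl, a neurofilament (difference 1.92 ± 0.57, above background on 1 of the 9 other arrays), and Elavl3, an RNA-binding protein (1.28 ± 0.24). Nefl passed the signal filter only through experiment 14, so the mean level draws partly on a gene kept for its signal there. With normexp correction 0 of the 8 stood apart and the neuronal median was 0.19. The mural list, with 3 genes measured, had a mean level of 7.72 to 8.59 against 7.15 to 7.68 and a median of 0.80. Of these 3 genes 1 passed the signal filter only through experiment 14, and the mean level was not taken without it. With normexp correction 0 of the 3 stood apart and the list median was 0.21. Without this correction the mural gene apart was Acta2, smooth muscle actin, at 9.50, 7.57 and 8.20 against 6.74 to 7.28 with a median of 6.93. The fibroblast list had a median of 0.79 over 7 genes, and its mean level overlapped, at 5.73 to 6.24 against 5.03 to 5.88. Among its genes Col6a1 stood apart at 1.35 ± 0.98, Col1a1 and Col1a2 differed by 1.89 ± 1.13 and 0.87 ± 0.70 without standing apart, and Postn, an adhesion protein of the matrix, differed by -0.99 ± 0.82.

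The neural progenitor list had a median of 0.27 over 7 genes, with 0 apart as higher and 1 as lower. The lower gene was Nes, a progenitor filament, at 10.91, 10.47 and 11.54 in experiment 14 against 10.92 to 13.72 with a median of 12.37. Among 10 endothelial genes 0 stood apart (median 0.00). Markers of monocytes, neutrophils, dendritic cells, T cells, B and NK cells and erythroid cells had 0 genes apart each, and list medians between -0.18 and 0.21. Sex-linked genes did not set the experiment apart, with differences of -0.39 ± 0.77 for Xist and 0.22 ± 0.10 for Ddx3y.

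Oxidative defence genes were higher than in the other experiments. All 11 listed genes were measured, and 6 stood apart as higher and 0 as lower, beside 1.26% and 0.497% of all genes. Of the 11, 10 were highest in experiment 14 in all 3 treatments, a count that was not made over all genes. The median difference of the 11 was 1.01 (1.29 untreated, 0.72 after Th1 and 0.93 after Th17 supernatant), beside -0.04 over all genes. Gclm, a subunit of the enzyme that limits glutathione synthesis, was at 13.76, 11.17 and 13.09 in experiment 14 and from 9.69 to 12.25 with a median of 11.45 elsewhere (difference 1.68 ± 0.50). Hmox1, which breaks down haem, was at 17.90, 16.43 and 17.67 against 15.03 to 17.24 with a median of 16.37 (difference 1.13 ± 0.20). Within each treatment both genes were highest on the array of experiment 14, and across treatments the Th1 level of experiment 14 overlapped the others.

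Nqo1, a quinone reductase, differed by 1.39 ± 0.45, Osgin1 by 1.41 ± 1.04, Me1, a source of NADPH, by 1.22 ± 0.18 and Gsr, glutathione reductase, by 1.01 ± 0.26. Gclc, Srxn1 and Txnrd1, which serve glutathione and thioredoxin, differed by 0.97 ± 0.43, 0.94 ± 0.23 and 0.71 ± 0.23 and missed the 2-fold threshold. G6pdx was the member that was not highest throughout, at 0.24 ± 0.40. With normexp correction 5 of the 11 stood apart, and without the untreated arrays 4, with medians of 0.93 and 0.82. Pir and Sqstm1, 2 further genes of this response named after their values were seen, differed by 1.10 ± 0.43 and 1.02 ± 0.45.

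The promoters of the oxidative defence genes are shown since these genes were higher together and since many genes of this class carry the antioxidant response element, the site of the factor NRF2. The letters TGACNNNGC were searched on both strands of the 250 bases before each RefSeq start (GRCm38.p6, used for names and promoters alone). Windows were at hand for 8 of the 11 genes, and 4 of these genes had a window that held the letters. These were 4 of their 11 windows, beside 10.2% of all 32851 windows in the table. A match is a string of letters and not a measured site. Each sequence below is given 5′ to 3′ on the strand of the gene, with the match in capitals.
Gclm, chr3:122245307-122245556, plus strand: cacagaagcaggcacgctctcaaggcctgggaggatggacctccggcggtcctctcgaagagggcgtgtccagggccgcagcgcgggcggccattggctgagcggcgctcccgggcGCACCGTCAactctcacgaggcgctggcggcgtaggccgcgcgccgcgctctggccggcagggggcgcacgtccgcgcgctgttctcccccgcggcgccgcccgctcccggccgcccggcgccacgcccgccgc
Prdx1, chr4:116685349-116685598, plus strand: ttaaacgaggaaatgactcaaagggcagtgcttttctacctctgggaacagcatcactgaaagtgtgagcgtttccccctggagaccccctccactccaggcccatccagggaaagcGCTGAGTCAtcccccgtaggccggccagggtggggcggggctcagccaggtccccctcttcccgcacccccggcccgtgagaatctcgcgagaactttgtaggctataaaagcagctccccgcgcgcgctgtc
Txnrd1, chr10:82858956-82859205, plus strand: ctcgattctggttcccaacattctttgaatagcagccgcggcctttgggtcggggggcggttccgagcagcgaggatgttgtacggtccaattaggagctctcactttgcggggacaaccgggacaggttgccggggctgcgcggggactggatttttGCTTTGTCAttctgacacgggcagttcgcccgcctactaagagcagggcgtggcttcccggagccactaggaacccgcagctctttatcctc
G6pdx, chrX:74428881-74429130, minus strand: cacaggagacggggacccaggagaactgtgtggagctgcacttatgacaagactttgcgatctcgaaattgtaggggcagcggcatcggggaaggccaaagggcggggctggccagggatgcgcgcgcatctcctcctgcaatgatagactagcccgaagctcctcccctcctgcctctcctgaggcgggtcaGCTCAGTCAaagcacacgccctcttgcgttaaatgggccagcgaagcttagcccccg

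Of the genes with a window that held the letters, Gclm stood apart, with a difference of 1.68. Prdx1, Txnrd1 and G6pdx did not stand apart, with differences of 0.42, 0.71 and 0.24. Nqo1, Osgin1 and Me1, which stood apart, had no match in any window, and neither had Srxn1. A role of NRF2 was not tested.

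Of the stress-inducible genes outside this list, 2 of 9 heat shock genes and 2 of 23 genes of the integrated stress and unfolded protein response stood apart as higher. The share over all genes was 1.26%. Hspa1a, the inducible heat shock protein HSP70, was at 10.06, 9.19 and 8.13 against 4.56 to 7.65 with a median of 6.20 (difference 3.22 ± 1.37), and Hspb1, a small heat shock protein, differed by 1.68 ± 0.40. These were the 2 heat shock genes apart, and the list median was 0.41. The constitutive Hspa8 differed by 0.09 ± 0.09. Nupr1, a stress-induced chromatin protein, was at 13.79, 15.13 and 12.84 against 10.67 to 13.44 with a median of 11.50, with all treatments of experiment 14 above the others of the same treatment. Nupr1 and Slc7a11 were the 2 of the 23 that stood apart, and the list median was 0.03. The unfolded protein chaperone Hspa5 differed by 0.03 ± 0.14.

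Of 23 genes of glycolysis and hypoxia, Adm, the vessel-dilating peptide adrenomedullin (difference 1.79 ± 0.65), Egln3, an oxygen-sensing hydroxylase (1.22 ± 0.66), and P4ha2, a collagen prolyl hydroxylase (1.12 ± 0.36), stood apart. The glycolytic enzymes Pgk1 and Ldha differed by 0.23 ± 0.09 and 0.18 ± 0.12. Among 18 immediate early genes, Btg2, Ier3 and Fos stood apart at 1.64 ± 0.64, 1.48 ± 0.49 and 1.10 ± 0.60, whereas Jun differed by 0.02 ± 0.11 and Egr1 by -0.62 ± 0.77. In each list 3 genes thus stood apart as higher, beside 1.26% of all genes.

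Matrix and protease genes included members at both ends. Plau, the plasminogen activator urokinase, was at 10.74, 10.07 and 11.67 against 10.31 to 14.40 with a median of 12.40, a difference of -1.58 ± 0.81, with experiment 16 highest in each treatment. On the slide they shared, Th1 14 minus Th1 13 was -0.24 for Plau. Timp1 and Timp3, inhibitors of metalloproteinases, differed by 1.58 ± 0.72 and 1.79 ± 0.40, and Ncan, a proteoglycan of neural tissue, by 1.32 ± 0.40. In all, 5 of 17 genes of the matrix and protease list, which did not include Plau, stood apart as higher and 0 as lower, with a list median of -0.02. Over all genes the shares were 1.26% and 0.497%. With normexp correction 1 of the 17 stood apart. Mmp12 and Fn1 differed by -1.05 ± 0.87 and -0.66 ± 0.39.

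The other immune and trophic lists held few genes that stood apart. Acute phase genes and interleukin-17 targets had the highest median of them, 0.61 over 10 genes, with 0 apart. In that list Saa3, an acute phase reactant, and C3, the central complement protein, differed by 0.98 ± 0.59 and 0.83 ± 0.47. Pattern recognition receptors had a median of 0.27 over 18 genes and MHC class I presentation one of 0.07 over 12, with 0 apart in each. Phagocytic receptors (median -0.02 over 16 genes) and interleukin-4 targets (0.08 over 6) each had 1 gene apart, as did growth factors of glia (0.25 over 14). These were Itgav, Cish and Cntf. Ependymal and choroid plexus markers had a median of -0.26 over 3 measured genes, with 0 apart.

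Further genes among the 15 with the largest higher differences were Tal2, a helix-loop-helix factor (difference 3.40 ± 0.95), Tm4sf1, a surface tetraspan protein (3.13 ± 0.46), and Ifitm6, of the interferon-induced transmembrane family (2.76 ± 1.14). Cish, a feedback inhibitor of cytokine signalling, was at 6.54, 11.89 and 8.87 against 3.91 to 11.13 with a median of 5.73 (difference 2.05 ± 1.08). Traf1, an adaptor induced by NF-kappaB, differed by 1.45 ± 0.37 and was 1 of 17 NF-kappaB feedback genes to stand apart. Itgav, an integrin subunit, and Cntf, a glial survival factor, differed by 1.02 ± 0.62 and 1.15 ± 0.69.

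Cell division genes were among the lower genes. Of 20 mitosis genes measured, 5 stood apart as lower and 0 as higher, beside 0.497% and 1.26% of all genes. Of the 20, 15 were lowest in experiment 14 in all 3 treatments, a count that was not made over all genes. The median difference was -0.77 (-0.86 untreated, -1.11 after Th1 and -0.39 after Th17 supernatant). Ccna2, cyclin A2, was at 11.73, 8.60 and 12.33 in experiment 14, 12.70, 10.47 and 12.70 in experiment 12, 12.75, 10.30 and 13.21 in experiment 13 and 13.05, 10.84 and 13.20 in experiment 16. Experiment 14 was lowest within each treatment, with the widest gap after Th1 supernatant, and all experiments were lower after Th1 supernatant than untreated.

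Kif11, a spindle motor, differed by -1.12 ± 0.74, Plk1, a mitotic kinase, by -1.003 ± 0.67, Nusap1, a spindle protein, by -1.01 ± 0.57 and Aurkb, a kinase of the chromosomal passenger complex, by -1.11 ± 0.82, the last above background on 2 arrays of experiment 14. Mki67, the proliferation marker, was at 12.79, 10.09 and 13.52 against 10.49 to 14.16 with a median of 13.65 (difference -0.70 ± 0.27). Among 17 S phase genes, Rrm2, a subunit of ribonucleotide reductase, stood apart at -1.15 ± 0.64, and the list median was -0.64. Without the Th1 arrays 1 of the 20 mitosis genes stood apart and the list median was -0.61.

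Several of the 15 lower genes with the largest differences also serve replication, repair or division: Pimreg (-1.51 ± 0.78), Neil3, a DNA glycosylase (-1.44 ± 1.01), Cenpm, a centromere protein (-1.43 ± 0.96), Esco2, a cohesin acetyltransferase (-1.39 ± 1.08), Fancd2, of the Fanconi repair pathway (-1.37 ± 0.79), and E2f7, a repressor of S phase genes (-1.37 ± 0.93). Neil3, Cenpm, Esco2 and Fancd2 were at the floor on Th1 14, so their differences there are limited by the floor. A second probe of E2f7 gave 0.04, and the 2 probes thus disagreed.

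The largest lower difference belonged to Mgll, the lipase that degrades the endocannabinoid 2-arachidonoylglycerol. It was at 7.32, 6.53 and 8.09 in experiment 14, 10.85, 8.90 and 10.89 in experiment 12, 8.69, 7.36 and 8.14 in experiment 13 and 10.73, 9.26 and 10.56 in experiment 16. The level in experiment 13 lay between those of experiment 14 and of the other 2, and the difference of -2.17 ± 0.53 (4.51-fold) was -1.51 with slide as a term. Cd300lf, an inhibitory receptor of myeloid cells, differed by -1.55 ± 0.86 and Trpc4, a cation channel, by -1.41 ± 0.77. The remaining genes of this group were Spata24, Atp8b4, Cdca7l, Bank1 and Ddias, with differences from -1.71 to -1.36.

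Cholesterol synthesis genes had a median difference of -0.73 over 24 genes (-1.14 untreated, -0.43 after Th1 and -0.63 after Th17 supernatant), and 0 stood apart. The median fell short of the 2-fold threshold, and 1 of the 24 was lowest in experiment 14 in all 3 treatments. On the Th17 arrays experiment 13 was as low as or lower than experiment 14 for most of the 24. Sqle, squalene epoxidase, was at 12.45, 7.80 and 13.22 in experiment 14, 13.26, 8.60 and 12.86 in experiment 13 and 14.31, 10.12 and 14.23 in experiment 16. Idi1, an isoprenoid isomerase, was at 12.00, 8.84 and 12.91 in experiment 14, 12.95, 9.60 and 12.62 in experiment 13 and 14.06, 10.69 and 14.00 in experiment 16. Without the Th17 arrays 8 of the 24 stood apart as lower.

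**Figure D4:**
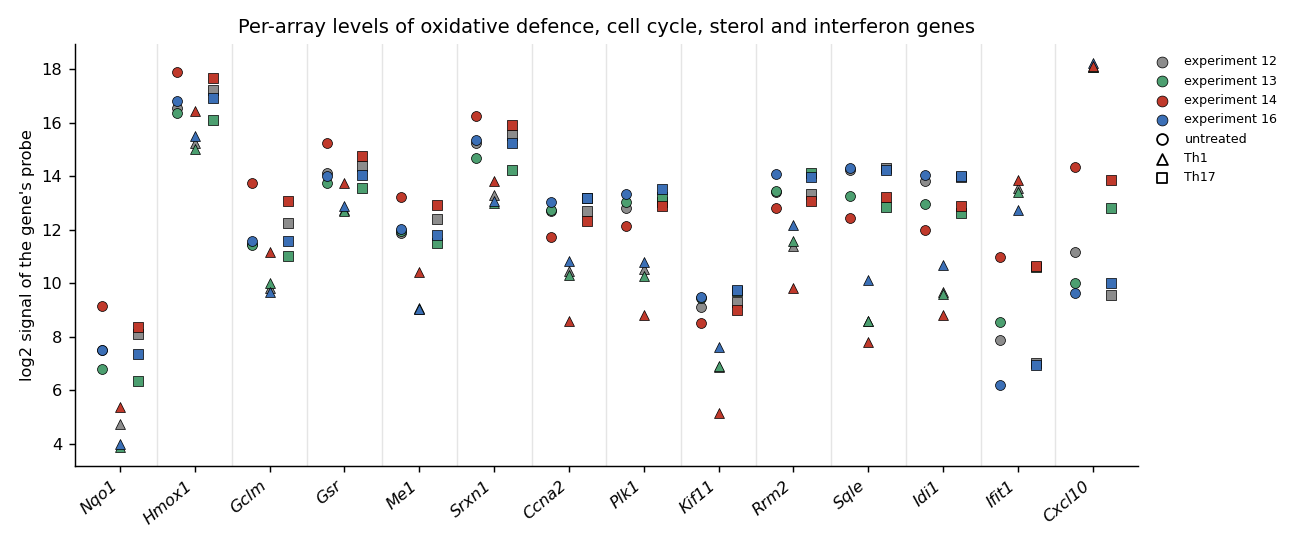
Log2 signal of 6 oxidative defence, 4 cell cycle, 2 sterol and 2 interferon-induced genes on each of the 12 arrays, with colour for experiment and shape for treatment; levels can be compared within a gene only. Experiment 14 (red) lies above the others of the same treatment for Nqo1 through Srxn1 and below them for Ccna2 through Rrm2.

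**Figure D5:**
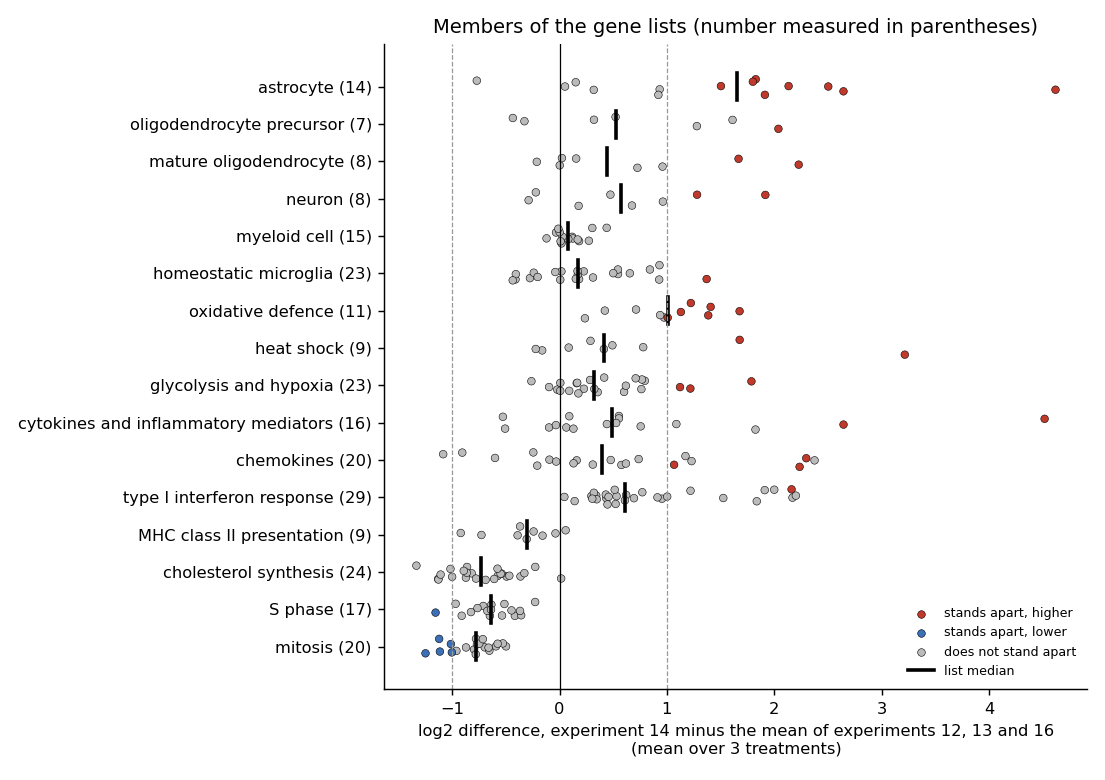
Each point is 1 gene of a list, placed at its log2 difference between experiment 14 and the mean of experiments 12, 13 and 16 (mean over 3 treatments); red and blue points stood apart as higher and lower, grey points did not, black bars are list medians and dashed lines mark 2-fold. Only members that passed the signal filter are shown. Over these, the astrocyte (1.65) and oxidative defence (1.01) medians lie at or beyond 2-fold and the mitosis median at -0.77.

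The sizes within a slide are given as values alone, since the rule that chose the genes fixes their direction. On their shared slide, Th1 14 exceeded Th1 13 by over 2-fold for 172 of the 256 higher genes (median 1.21) and lay over 2-fold below it for 75 of the 101 lower genes (median -1.42). On the other slide, Th17 14 exceeded Th17 16 by over 2-fold for 169 of the higher genes (median 1.27) and lay over 2-fold below it for 30 of the lower genes (median -0.82). Untreated 14 had no untreated partner on its slide. With slide as a term, all 256 and 101 genes kept their sign, and 228 and 86 stayed over 2-fold. Preparation and every other condition that differed between experiments, such as the batch of supernatant, cannot be told apart here.

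The response to the supernatants was compared next, as the change from untreated to treated in experiment 14 minus the same change in the others. The contrast has 1 array per treatment in experiment 14, and its untreated array was among the values that singled the experiment out, so the counts are given as a description and no p for single genes. For the Th1 response, limma called 0 of 20336 genes in either direction (0% of the genes tested) at an adjusted p under 0.01 and over 2-fold. For the Th17 response it called 2 genes as higher (0.00983%) and 1 as lower (0.00492%). With experiment as a replicate block these counts were 1 and 0.

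Tex45, a gene of testis, was at 3.91, 4.10 and 7.18 on the arrays of experiment 14 and from 3.91 to 4.31 with a median of 4.00 on the others, a difference in response of 3.30 ± 0.18 (SE). Adgrf4, an adhesion G protein-coupled receptor, was at 7.83, 5.50 and 3.91 against 3.91 to 4.44 with a median of 3.91, with a difference of -3.97 ± 0.29 (SE). Tex45 was high on Th17 14 alone. Adgrf4 was high on untreated 14 and next on Th1 14, and the arrays of the other experiments lay at or near the floor for both genes, so that the sizes depend on the floor. The third call was a probe without a symbol, which was at 8.62 on Th17 14 and between 3.91 and 5.10 on the others, with a difference of 4.59 ± 0.38 (SE). None of the 3 was called without experiment 12, without experiment 13 or without experiment 16.

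The treatment contrasts themselves were refitted without experiment 14. Over all 12 arrays limma called 1493 genes as higher (7.34% of the genes tested) and 1550 as lower (7.62%) after Th1 supernatant. Without experiment 14 it called 1363 and 1439, and 2596 of the 3043 calls were shared. After Th17 supernatant it called 0 genes as higher (0%) and 0 as lower (0%) with or without experiment 14, with 334 and 326 genes at an unadjusted p under 0.05. The median residual SD of a gene was 0.257 over all arrays, 0.229 without experiment 14, 0.235 without experiment 16, and 0.261 and 0.264 without experiments 12 and 13.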

How the data were processed

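RNA of 12 microglia cultures (3 treatments in each of 4 experiments) was hybridised to 1-colour Agilent arrays. The deposited intensity values were the processed signals of Agilent Feature Extraction 10.7.3.1, already background-subtracted, and the headers name mm9 as the annotation build. A deposited table of log2 values was used only as an alternative. Its columns correlated at 0.999993 or more with signals scaled to the 75th percentile and centred on each probe's median, and their medians ran from -0.23 to 0.18, but its scale and centring are not given in the sources used here.

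Outlier spots were left out, and the 43020 non-control spots of an array were reduced to 39429 probes by geometric means. Signals were quantile normalised, scaled to a 75th percentile of 1500, raised to a floor of 15 and put on the log2 scale. Probes well above background on at least 3 arrays were kept (24975), and the probe with the highest mean stood for its gene. RefSeq accessions gave symbols to 14265 of 20336 genes (70.1%). R 4.3.3, limma 3.58.1 and data.table version 1.17.8 were used.

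Experiment 14 was compared with the others within each treatment, as a description. Responses to the supernatants and treatment contrasts were tested with limma over all 12 arrays (Benjamini-Hochberg adjusted p under 0.01, over 2-fold), and the p-values measure the spread between experiments. In the response contrasts experiment 14 has 1 array per treatment, which was assumed to vary like the other 3. The number of arrays limits the precision. The tests were also run on simulated data, drawn around the gene means of these arrays with no shared spread within an experiment. No minimum recovery was set there for the response contrasts. The members and the gene lists were chosen with earlier results of these data known. The text names the 15 genes with a symbol that differed most in each direction, provided that every array of the brighter side was above background, up to 4 genes that stood apart in each list, the first 4 markers of each cell type where a result turned on them, genes called in a response, and sex-linked genes. The genes of solute handling and others said to be so were chosen after their values were seen, as were the list members given as examples that did not stand apart. Arrays with the same title number come from the same experiment, and their deviations from the treatment means correlated at 0.231 to 0.603 over 12 pairs, against -0.406 to 0.117 over 36 pairs of different number, so the numbers were taken to pair the samples. Of 33 other probes of the genes named, 29 had the same sign as the probe used, and of the 4 others 1, of E2f7, involved a difference over 2-fold. Alternatives covered normalisation, background correction, filters, floor, probe choice, slide, experiment as a block, thresholds and leaving out experiments or arrays. Some genes that this rule takes in are not reported here.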

Additional observations from a re-analysis of the deposited data

Results flagged for a closer look

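The mean levels of 43 gene lists and several measures of array quality were examined in 147 groups of 4 arrays of 1 treatment for a single array far from the other 3. Chance alone flags about 1 in 20 such groups, and 7 of the 147 had such an array.

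On 3 lists the array that stood off belonged to experiment 14. The mean log2 level of heat shock genes was 13.719 on untreated 14 and 12.71 to 12.763 on the other untreated arrays, and 13.426 on Th17 14 against 12.732 to 12.757. The mean level of mature oligodendrocyte genes was 9.578 on untreated 14 against 8.7 to 8.833. For NF-kappaB feedback genes it was 12.01 on untreated 14 against 11.406 to 11.49. The mean level of neural progenitor genes was 7.428 on Th17 16 and 6.868 to 6.938 on the other Th17 arrays.

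Among the quality measures, the median coefficient of variation of replicate spots was 8.14793% on untreated 12 where the remaining 3 of its treatment ran from 12.8948% to 13.514%, and the net signal of the negative controls was 37.2767 intensity units on Th1 16 against 24.8164 to 26.7889 on the other Th1 arrays. On no array of experiment 14 did a quality measure stand off in this way.

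For the response to Th17 supernatant, limma called a difference between experiment 14 and the others for Adgrf4 (-3.97437 on the log2 scale), Tex45 (3.30193) and the probe A_55_P2126528 (4.59425), which has no symbol here. Experiment 14 gave 1 array per treatment, its untreated array was among the values that singled it out, and none of the 3 was called when experiment 12, 13 or 16 was left out. The mean response of the other 3 experiments was 0.06 for Adgrf4, -0.03 for Tex45 and 0.12 for the probe.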

How the results depend on the processing

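The genes that stood apart were 256 higher and 101 lower. Leaving out experiments or the arrays of a treatment gave 245 to 495 higher and 75 to 243 lower genes. Normexp background correction gave 83 and 13, probes above background on all 12 arrays 149 and 61, a floor of 50 161 and 64, no floor 274 and 166, a 4-fold threshold 39 and 1, a 1.5-fold threshold 520 and 407, and 2-fold with no rule on order 412 and 153. Scaling alone, the deposited value table, no filter, the mean of probes and the slide term gave counts within 1.5 times of these. The planned normexp correction of mean signals was not run, since the arrays' tables hold median signals, and median signals were used instead, a choice made after seeing the data. Of the 71 named genes that stood apart, 0 changed sign in 1034 values under alternatives. Where experiments or arrays were left out, the rule that chose these genes fixes the sign, so those values could not change it. In all, 65 values were smaller by over 1.5 times, 39 of them with normexp and 16 with a floor of 50.

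The difference in Th1 response gave 0 calls except with no filter (242 higher and 157 lower) and a floor of 50 (54 and 56). The difference in Th17 response gave 2 higher and 1 lower call, and 130 and 131 with no filter, 27 and 37 with a floor of 50, 1 and 1 with scaling alone or normexp, 1 and 0 with no floor, and 0 and 0 with the value table, with probes above background on all arrays, with slide as a block and without experiment 12, 13 or 16. In the settings with many calls, most called genes were at the floor on the other arrays: with a floor of 50, 91 of 110 Th1 calls and 55 of 64 Th17 calls had at least 6 of the 9 other arrays there, and with no filter 375 of 399 and 250 of 261.

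Since the numbers pair the samples, experiment was also fitted as a replicate block. It gave 1 higher and 0 lower calls for the Th17 response, against 2 and 1 without it, and changed no other count by over 1.5 times (Th1 against untreated 1569 and 1835). The treatment counts themselves were 1079 and 989 with normexp for Th1 against untreated, and 1226 to 1516 higher and 1120 to 1519 lower when an experiment was left out. Th17 against untreated gave 0 calls throughout, except 1 lower gene without experiment 12 (0 to 1 over the experiments left out). List counts that moved by 4 or more were those of the astrocyte list with normexp (2 of 14), the matrix and protease list with normexp (1 of 17), the mitosis list with normexp or without the Th1 arrays (1 of 20 each) and without the Th17 arrays (9 of 20), and the cholesterol list without the Th17 arrays (8 of 24). The cause of the other changes was not tested.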
